A study of Mus musculus with 14 samples.

Results

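Hypoxia and glycolysis genes were followed in whole tumours of 4T1 cells, a mouse triple-negative mammary carcinoma line, after treatment of the animals with cyclophosphamide (CTX), an alkylating drug that crosslinks DNA. The set holds 33 gene symbols chosen by name for their roles in glycolysis or as targets of the hypoxia-inducible factor HIF-1. They stand under 34 of the 54532 identifiers in the deposited tables, and all 33 symbols passed the filter on low counts, as did 15360 genes in all. Aldoa is listed under a pair of identifiers, of which ENSMUSG00000030695 holds 99.97% of the counts and is used here. Per the labels, 1000000 cells were injected into the subcutaneous mammary area. Treatment began on day 9, once tumours measured about 100 mm3, and animals were given PBS (4 libraries, PBS), 100 mg/kg CTX (5 libraries, CTX100) or 140 mg/kg CTX (5 libraries, CTX140) every 6 days, and tumours were taken 3 days after cycle 3. Strain, sex and age of the mice are not stated in the labels. All groups carry the same tumour line, and the tissue is tumour with its host cells, so fewer cells of a type and less RNA per cell cannot be told apart in any value below.

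The library totals lay between 14.4 and 19.3, in units of 1000000 counts. Carcinoma epithelium markers were read in every library, with none of 8 at 0 throughout a group and a summed level of 1256 to 2260 CPM (counts scaled to the TMM-adjusted library size). Krt8 and Krt18 make up most of that sum and were not called in any comparison, while Epcam, Krt19, Cdh1 and Cldn7 were called higher at CTX140, Epcam from a mean of 1.40 CPM in PBS to 20.3 CPM and Krt19 from 3.80 to 45.0 CPM. Epcam and Krt19 were highest in CTX140 1, at 61.9 and 125 CPM. Of host cell markers, the summed level of 9 fibroblast genes was 791 to 1309 CPM in PBS, 1324 to 2288 CPM in CTX100 and 2342 to 6586 CPM in CTX140, and that of 7 adipocyte genes was 7.30 to 55.2, 49.9 to 175 and 112 to 591 CPM. Neutrophil markers (8 genes) spanned 971 to 1891, 895 to 1755 and 934 to 2333 CPM and macrophage markers (8 genes) 1216 to 1886, 697 to 1484 and 809 to 4062 CPM, so these ranges overlapped between the groups. Red blood cell markers (6 genes) summed to 70.6 to 176 CPM in PBS and 3.50 to 38.1 CPM in CTX100, without overlap, and to 6.30 to 301 CPM in CTX140, where CTX140 5 was highest. The part of these cell types in the results on hypoxia and glycolysis genes was not tested. CTX140 1 had the highest summed level of adipocyte, blood endothelium, T cell and keratinocyte markers of the 14 libraries, and values without it are given beside the results in which it stood apart. CTX100 3 held muscle transcripts at 228 CPM over 8 markers, against at most 21.3 CPM in any other library.

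Glycolysis splits glucose into pyruvate, which lactate dehydrogenase turns into lactate when the cell does not oxidise it in mitochondria. HIF-1, a pair of HIF-1 alpha (Hif1a) and ARNT, raises the transcription of most of these enzymes when oxygen is low. With oxygen present, prolyl hydroxylases of the EGLN family mark HIF-1 alpha for destruction, so its activity is set mainly by protein stability and not by the level of its mRNA. Solid tumours often contain poorly perfused regions in which the pathway is active, and many carcinoma lines run a high glycolytic rate even with oxygen.

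HIF-1 binds DNA at the core ACGTG or GCGTG. Promoter sequence from RefSeq (GRCm38.p6, the mm10 build of the files) was found for 31 of the 33 genes, at 46 start sites. In the 250 bases upstream of these start sites, searched on both strands, 36 of 46 (78.3%) held either core, 45.7% held ACGTG and 54.3% GCGTG. Of all 32851 promoters in the table, 38.6% held either, 16.6% ACGTG and 28.2% GCGTG. The windows of the 46 start sites had a mean GC content of 61.0%, against 53.2% over all promoters, and its part in these shares was not tested. The genes were listed partly as known HIF targets, so this share describes the list. Ldha and Bnip3 had the most matches, 5 each. The windows of the 5 genes that passed the test at the higher dose are printed here, 5′ to 3′ along the gene, with every ACGTG or GCGTG of either strand in capitals. The search on both strands counts the palindrome CACGTG once per strand.
Slc16a3, chr11:120948817-120949066, plus strand: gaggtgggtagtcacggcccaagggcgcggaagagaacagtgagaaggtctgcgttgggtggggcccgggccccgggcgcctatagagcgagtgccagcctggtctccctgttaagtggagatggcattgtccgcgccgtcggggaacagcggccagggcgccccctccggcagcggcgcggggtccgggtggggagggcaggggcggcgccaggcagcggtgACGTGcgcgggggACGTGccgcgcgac
Pfkfb3, chr2:11553930-11554179, minus strand: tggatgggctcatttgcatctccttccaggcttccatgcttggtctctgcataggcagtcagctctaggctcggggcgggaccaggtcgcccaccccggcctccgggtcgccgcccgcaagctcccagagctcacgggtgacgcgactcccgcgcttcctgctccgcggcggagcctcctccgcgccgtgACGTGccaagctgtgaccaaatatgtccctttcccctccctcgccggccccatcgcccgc
Egln3, chr12:54203875-54204124, minus strand: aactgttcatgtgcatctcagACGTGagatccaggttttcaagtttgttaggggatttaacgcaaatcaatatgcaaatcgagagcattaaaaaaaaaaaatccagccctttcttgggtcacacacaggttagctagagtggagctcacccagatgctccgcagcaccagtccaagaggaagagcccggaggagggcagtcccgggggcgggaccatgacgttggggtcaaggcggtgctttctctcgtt
Aldoc, chr11:78322823-78323072, plus strand: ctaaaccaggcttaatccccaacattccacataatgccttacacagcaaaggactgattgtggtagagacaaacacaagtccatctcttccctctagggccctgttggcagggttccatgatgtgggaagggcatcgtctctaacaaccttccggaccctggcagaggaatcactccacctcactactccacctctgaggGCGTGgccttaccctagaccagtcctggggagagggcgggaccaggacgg
Ddit4, chr10:59951771-59952020, minus strand: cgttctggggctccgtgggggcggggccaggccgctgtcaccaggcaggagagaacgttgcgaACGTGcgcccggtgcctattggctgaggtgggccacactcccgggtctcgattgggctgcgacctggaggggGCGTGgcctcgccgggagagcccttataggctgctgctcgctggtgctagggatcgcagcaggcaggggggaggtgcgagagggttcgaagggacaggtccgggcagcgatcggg
In these windows Slc16a3 and Pfkfb3, which rose, and Egln3, Aldoc and Ddit4, which fell, each hold at least 1 core. A match describes the sequence only.

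Levels per length spanned a wide range. In PBS tumours Aldoa (aldolase) was highest at 870 ± 118 FPKM (fragments scaled by gene length and library depth, mean ± SD, n = 4), followed by Ldha (lactate dehydrogenase A) at 652 ± 84.7 FPKM and Pkm (pyruvate kinase) at 598 ± 44.3 FPKM. Pgk1 (phosphoglycerate kinase) at 392 ± 100 FPKM and Tpi1 (triosephosphate isomerase) at 379 ± 45.5 FPKM differed by less than their spread. The glucose transporter Slc2a1 was at 110 ± 15.9 FPKM, the HIF-regulated hydroxylase gene Egln3 at 124 ± 17.9 FPKM and Hif1a at 53.9 ± 18.5 FPKM. At the low end stood the regulators Pfkfb3 and Pfkfb4, at 5.19 ± 0.94 and 4.80 ± 0.68 FPKM, and the neuronal-type glucose transporter Slc2a3, at 2.70 ± 0.44 FPKM.

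The lower dose was compared first. Against PBS, none of the 33 was called at an edgeR adjusted p under 0.05. Of all 15360 genes 1.60% were called, 1.20% higher and 0.397% lower. An unadjusted edgeR p under 0.05 was found in 3 of the 33 and in 2748 of the 15360 genes. DESeq2 and limma on log2(FPKM + 1) also called 0, where they called 5.19% and 0.964% of all genes. The fold change was above 0 for 27 genes and below 0 for 6, with a median log2 fold change of 0.10, while the median over all genes tested was -0.01. P4ha2, a subunit of the collagen prolyl hydroxylase, had the highest value, a log2 fold change of 0.55 ± 0.20 (SE; edgeR adjusted p = 0.168), and Aldoc, an aldolase isoform, the lowest, -0.40 ± 0.17 (edgeR adjusted p = 0.219). When only these groups were fitted, P4ha2 passed (edgeR adjusted p = 0.0383). Without PBS 4 the median of the set was 0.03, so its shift above 0 rests partly on that library. In 4 genes, Pfkp, Pdk1, Ndrg1 and P4ha2, every CTX100 library lay above every PBS library, where 5.17% of all genes did so, and in none did every CTX100 library lie below, where 3.55% did.

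At the higher dose, 5 of the 33 genes were called, 2 higher and 3 lower, where 21.3% of all genes tested were called, 11.1% higher and 10.1% lower. The monocarboxylate transporter gene Slc16a3 and the regulator gene Pfkfb3 rose, and Aldoc, Egln3 and Ddit4 fell. Most of the other genes had fold changes below 0: 27 of 33 in all, with a median log2 fold change of -0.17, against 47.8% of all genes and a median of 0.02. Under the alternatives run, the number below 0 lay between 20 and 28. The lowest, 20, and a median of -0.11 came without CTX140 1. In that fit 6 of the 33 were called, the same 5 and P4ha2, where 20.2% of all genes were. The groups did not overlap for Slc16a3 and Pfkfb3 (higher) and for Egln3 and Aldoc (lower), 2 of 33 in each direction, where 7.34% of all genes were higher without overlap and 6.91% lower. Both doses were set against the same PBS libraries, so the comparisons are not independent.

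**Figure D1:**
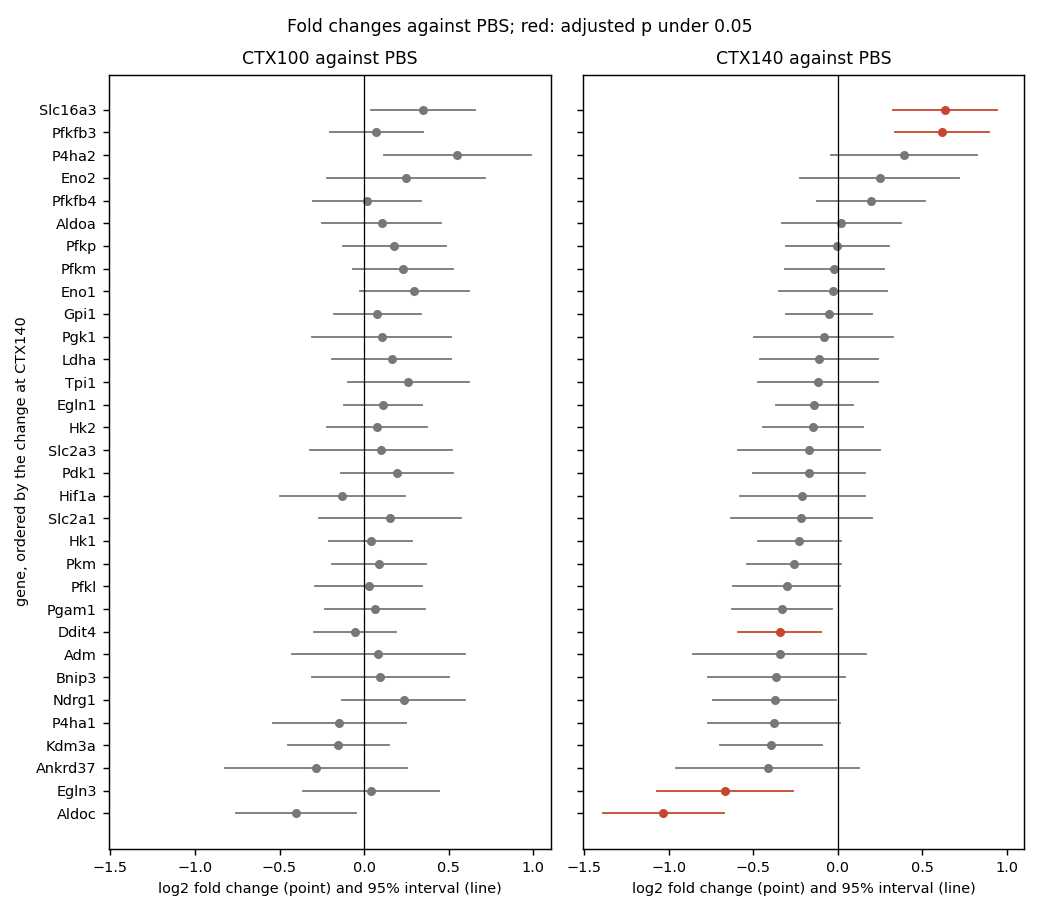
Log2 fold changes against PBS for 32 hypoxia and glycolysis genes (Gapdh left out), with 95% intervals from the edgeR fit, at CTX100 (left) and CTX140 (right); red marks an adjusted p under 0.05. No gene is red at CTX100, and at CTX140 Slc16a3 and Pfkfb3 are red to the right of 0 and Aldoc, Egln3 and Ddit4 to the left.

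Slc16a3 encodes MCT4, which carries lactate out of glycolytic cells. It was read at 90.5, 75.2, 68.1 and 62.2 CPM in PBS 1 to 4, at 97.7, 84.4, 103, 84.1 and 102 CPM in CTX100 1 to 5, and at 94.2, 119, 143, 126 and 91.5 CPM in CTX140 1 to 5. Every CTX140 library lay above every PBS library, by little at the nearest pair. The log2 fold change at CTX140 was 0.63 ± 0.15 (SE; edgeR adjusted p = 0.00696), and the call held in all 20 alternatives. At CTX100 it was 0.35 ± 0.15 (edgeR adjusted p = 0.221), and CTX140 against CTX100 gave 0.28 ± 0.14 (edgeR adjusted p = 0.230), so the doses were not shown to differ.

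Pfkfb3 encodes a bifunctional enzyme that makes fructose 2,6-bisphosphate, the activator of phosphofructokinase. Its levels were 40.4, 31.1, 48.0 and 37.8 CPM in PBS 1 to 4, 45.8, 41.6, 43.1, 36.2 and 40.0 CPM in CTX100 1 to 5, and 66.9, 69.5, 55.0, 55.1 and 55.0 CPM in CTX140 1 to 5. The 5 CTX140 libraries stood above all 9 others. The log2 fold change was 0.62 ± 0.13 (SE; edgeR adjusted p = 0.00427) against PBS and 0.07 ± 0.13 at CTX100 (edgeR adjusted p = 0.825). The call against PBS held in all 20 alternatives. Against CTX100 the higher dose gave 0.55 ± 0.12 (edgeR adjusted p = 0.0419), the one called difference between the doses in the set. That call was lost in 12 of 21 alternatives, among them leaving out any CTX100 library or CTX140 1, CTX140 2 or CTX140 3, with a highest adjusted p of 0.123; its log2 fold change stayed between 0.49 and 0.58 when 1 library was left out. The sister gene Pfkfb4 was at 23.5 ± 3.36 CPM in PBS (n = 4) and 26.9 ± 5.22 CPM at the higher dose (n = 5), and was not called (edgeR adjusted p = 0.376).

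Aldoc encodes aldolase C, an isoform best known from brain, which acts beside the main form Aldoa. It was at 85.5, 132, 100 and 84.5 CPM in PBS 1 to 4, at 69.8, 79.3, 76.6, 94.5 and 60.2 CPM in CTX100 1 to 5, and at 43.2, 44.1, 45.6, 67.8 and 45.6 CPM in CTX140 1 to 5. All CTX140 libraries lay below all PBS libraries, and CTX100 lay between with overlap on both sides. Aldoc had the largest fold change of the 32 genes other than Gapdh, -1.03 ± 0.17 on the log2 scale (SE; edgeR adjusted p = 0.000784), with a call in all 20 alternatives. For CTX140 against CTX100 it was -0.63 ± 0.16 (edgeR adjusted p = 0.0558), called in 5 of 21 alternatives, DESeq2 among them. Aldoa was at 2543 ± 343 CPM in PBS (n = 4) and 2577 ± 517 CPM in CTX140 (n = 5), a log2 fold change of 0.02 with a 95% interval of -0.33 to 0.37.

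Egln3 encodes the prolyl hydroxylase PHD3, both a regulator and a target of HIF-1. PBS 1 to 4 had 341, 302, 393 and 291 CPM, CTX100 1 to 5 had 397, 341, 344, 320 and 303 CPM, and CTX140 1 to 5 had 122, 166, 233, 278 and 246 CPM. The CTX140 libraries were below all others, and CTX140 1 was lowest. The log2 fold change at CTX140 was -0.67 ± 0.19 (SE; edgeR adjusted p = 0.0211). It was -0.52 without CTX140 1 and still called, and the call was lost without PBS 3 (-0.58, adjusted p = 0.0749), without CTX140 2 (-0.59, adjusted p = 0.0503) and with only these groups fitted (-0.68, adjusted p = 0.0629). Between the doses it was -0.71 ± 0.18 (edgeR adjusted p = 0.0558). Its relative Egln1, the main oxygen sensor PHD2, was at 131 ± 7.67 CPM in PBS and 119 ± 14.1 CPM in CTX140 and was not called.

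Ddit4, also known as REDD1, restrains mTORC1 under hypoxia and other stress. PBS 1 to 4 had 86.1, 97.5, 92.5 and 84.4 CPM, CTX100 1 to 5 had 90.6, 85.4, 96.5, 84.7 and 76.5 CPM, and CTX140 1 to 5 had 87.3, 69.7, 74.1, 58.5 and 65.3 CPM. CTX140 1 overlapped PBS and the other 4 CTX140 libraries lay below it. The log2 fold change of -0.34 ± 0.12 (SE) passed narrowly (edgeR adjusted p = 0.0431) and was called in 7 of 20 alternatives, with a highest adjusted p of 0.0928. Leaving out any PBS library, or any CTX140 library other than CTX140 1, ended the call, with -0.29 to -0.43 on the log2 scale when 1 library was left out.

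Hif1a itself did not pass in any comparison. Its levels were 255, 248, 478 and 294 CPM in PBS 1 to 4, 318, 325, 301, 240 and 274 CPM in CTX100 1 to 5, and 262, 327, 290, 238 and 261 CPM in CTX140 1 to 5. The groups overlapped, and PBS 3 stood highest of the 14. The log2 fold change at CTX140 was -0.21, with a 95% interval of -0.58 to 0.16, and 0.05 without PBS 3; at CTX100 it was -0.13, and 0.13 without PBS 3.

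**Figure D2:**
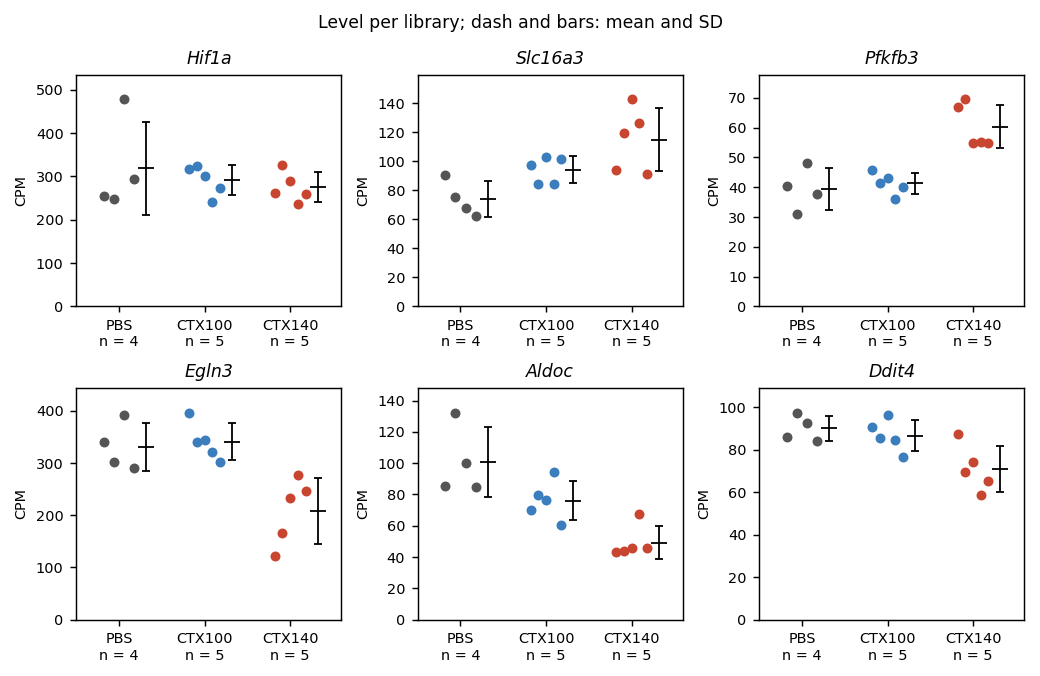
Level of Hif1a and of the 5 genes called at CTX140, in CPM, with 1 point per library; dashes and bars show the mean and SD. Pfkfb3 in CTX140 lies above all other libraries, Aldoc and Egln3 in CTX140 lie below all PBS libraries, and Hif1a overlaps across the 3 groups.

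The remaining glycolysis genes of the set did not pass at either dose. For upper glycolysis, Hk1 and Hk2, the hexokinases that trap glucose as its phosphate, had log2 fold changes of -0.23 and -0.15 at CTX140, and Gpi1 (phosphoglucose isomerase) -0.05 with a 95% interval of -0.31 to 0.20. The phosphofructokinase genes Pfkl, Pfkm and Pfkp had -0.30, -0.02 and -0.0024. Pfkl ranged from 418 to 559 CPM in PBS and from 280 to 529 CPM in CTX140, and it was called lower only without CTX140 4 (edgeR adjusted p = 0.0255). Tpi1 had -0.11. Pfkm and Pfkp overlap Senp1 and Pitrm1 on the chromosome, which held 78.0% and 24.6% as many counts, and with no strand setting given reads of the shared stretches cannot be told apart.

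In lower glycolysis the log2 fold changes at CTX140 were -0.08 for Pgk1, -0.33 for Pgam1 (phosphoglycerate mutase, edgeR adjusted p = 0.0990), -0.03 for Eno1 and 0.25 for Eno2 (enolases), and -0.26 for Pkm. Eno1 has a near-copy, Eno1b, which held 26.5% of the counts of the pair; whether reads were split between them was not tested, so the level of Eno1 is uncertain. Ldha had -0.11 with a 95% interval of -0.46 to 0.24, and Pdk1, a kinase that restrains the oxidation of pyruvate in mitochondria, had -0.17. The glucose transporters Slc2a1 and Slc2a3 had -0.22 and -0.17. Of the 27 genes other than Gapdh not called at CTX140, the intervals reached from -0.95 (Ankrd37) to 0.83 (P4ha2), which leaves room for changes of moderate size.

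Among the other HIF targets of the set, none but Ddit4 passed. Ndrg1, a stress-induced gene often used as a hypoxia marker, was at 691, 711, 604 and 732 CPM in PBS 1 to 4, at 827, 745, 738, 848 and 865 CPM in CTX100 1 to 5, and at 313, 490, 672, 641 and 525 CPM in CTX140 1 to 5. CTX100 lay above both other groups in every library. The log2 fold change was 0.23 at CTX100 (edgeR adjusted p = 0.509), -0.37 at CTX140 (edgeR adjusted p = 0.127) and -0.61 ± 0.16 (SE) between the doses (edgeR adjusted p = 0.0627), and the last was called in 4 of 21 alternatives, DESeq2 and leaving out CTX140 4 among them. Bnip3, which drives mitophagy, was at 209 ± 24.1 CPM in PBS, 224 ± 14.8 CPM in CTX100 and 163 ± 48.1 CPM in CTX140. Kdm3a, a histone demethylase, had -0.39 at CTX140 (edgeR adjusted p = 0.0572) and was called without PBS 1 or CTX140 4. Adm (adrenomedullin, a vasodilator peptide) ranged from 41.8 to 95.5 CPM in PBS and from 31.4 to 67.9 CPM in CTX140. Ankrd37, an ankyrin repeat gene, ranged from 18.6 to 38.3 CPM in PBS; a gene that overlaps it held 193% as many counts, so its reads are uncertain.

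P4ha1 and P4ha2, the alternative catalytic subunits of collagen prolyl hydroxylase, took different shares. P4ha2 made up 9.98, 11.6, 7.96 and 9.55% of their summed FPKM in PBS 1 to 4, 13.6, 14.7, 13.6, 17.3 and 14.6% in CTX100 1 to 5, and 12.9, 15.2, 15.7, 17.2 and 14.4% in CTX140 1 to 5. Every library of either dose lay above every PBS library, although neither gene alone was called at either dose. The summed level of fibroblast markers was also above all PBS libraries at both doses. Between the doses the marker sum did not overlap and was higher at CTX140, and the share of P4ha2 overlapped. Of the 9 fibroblast markers, 7 had fold changes above 0 at each dose. Pdgfra had log2 fold changes of -0.55 and -0.60 at the lower and higher dose and was not called. The part of fibroblasts in this share was not tested.

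Shares were also compared within the other families. Aldoc took 3.39 ± 0.38% of aldolase FPKM in PBS (n = 4) and 1.71 ± 0.34% in CTX140 (n = 5), without overlap. Pfkp took 16.5 ± 0.89% of phosphofructokinase FPKM in PBS and 19.2 ± 0.61% in CTX140, also without overlap, and Pfkl 74.4 ± 1.82 and 70.3 ± 1.59%. Egln3 took 77.2 ± 2.79% of the Egln1 and Egln3 sum in PBS, 76.5 ± 2.39% in CTX100 and 69.2 ± 7.19% in CTX140. Hk2 held 55.1 ± 3.74, 55.8 ± 1.27 and 56.2 ± 5.30% of hexokinase 1 and 2, and Slc2a1 97.6 ± 0.30, 97.7 ± 0.50 and 97.3 ± 0.91% of the Slc2a1 and Slc2a3 sum, with overlapping groups. No test was made of these shares.

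**Figure D3:**
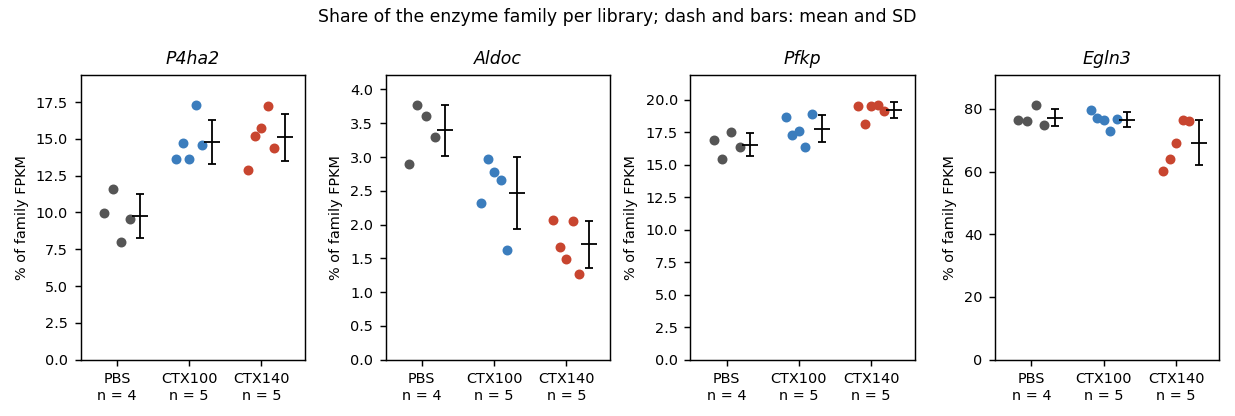
Share of the family's summed FPKM, in percent, taken by P4ha2 (of P4ha1 and P4ha2), Aldoc (of Aldoa and Aldoc), Pfkp (of Pfkl, Pfkm and Pfkp) and Egln3 (of Egln1 and Egln3), with 1 point per library and the mean and SD as dash and bars. P4ha2 lies at 7.96 to 11.6% in PBS and at 12.9% or more in all CTX libraries.

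Gapdh, the glyceraldehyde-3-phosphate dehydrogenase often used as a reference gene, varied more between libraries than any other gene of the set. It was at 15.5, 971, 17.0 and 25.5 CPM in PBS 1 to 4, at 17.7, 493, 17.0, 538 and 583 CPM in CTX100 1 to 5, and at 22.0, 11.5, 711, 29.6 and 58.7 CPM in CTX140 1 to 5. A gap from 58.7 to 493 CPM fell inside each of the 3 groups. The highest value was 84.7 times the lowest, the widest such ratio of 1962 genes whose mean reached 100 CPM. The enzymes on either side of it in the pathway, Tpi1 and Pgk1, spanned 2.11- and 2.38-fold. The 6 other rows named or described as Gapdh copies held 144 counts over all 14 libraries, against 55450 for Gapdh. Its log2 fold change at CTX140 was -0.63 with a 95% interval of -4.25 to 3.00. How the authors assigned reads that match several Gapdh copies is not stated, the cause of the split was not tested, and these values may therefore not be the level of Gapdh mRNA. Without Gapdh the medians of the other 32 genes were 0.09 at CTX100, -0.17 at CTX140 and -0.26 between the doses, with 26, 6 and 3 genes above 0.

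**Figure D4:**
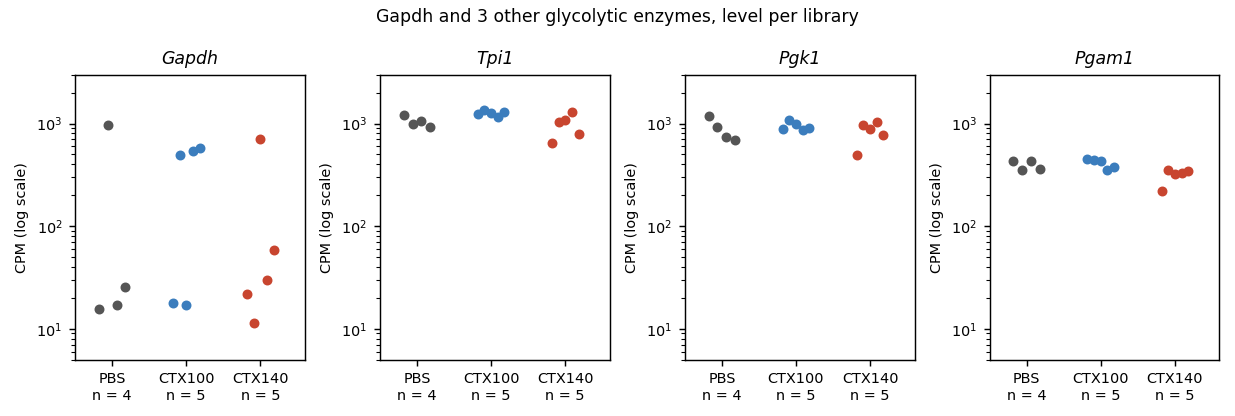
Level of Gapdh, Tpi1, Pgk1 and Pgam1 per library, in CPM on a log scale, with 1 point per library. Gapdh splits into values of at most 58.7 CPM and values of at least 493 CPM within each group, while the other 3 enzymes each stay within a narrow band.

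Between the doses, no gene of the set was called lower at CTX140 than at CTX100. Of 33 genes 1, Pfkfb3, was called, where 1.25% of all genes were called, 0.775% higher and 0.475% lower. The fold change was below 0 for 30 genes, with a median log2 fold change of -0.27, against 46.6% of all genes and a median of 0.03, and 14 of 33 had an unadjusted p under 0.05, as did 3430 of the 15360 genes. In 6 genes, Egln3, Pgam1, Eno1, Pkm, Bnip3 and Ndrg1, every CTX140 library lay below every CTX100 library, where 3.71% of all genes did so; the reverse held for Pfkfb3 alone, where it held for 2.33% of all genes. Without CTX140 1 the median was -0.22, 26 genes were below 0 and 0 were called; over all genes the calls fell from 192 to 52, or 0.343%. DESeq2 called 4 genes, Pfkfb3 higher and Egln3, Aldoc and Ndrg1 lower, where it called 6.99% of all genes it tested. With limma on log2(FPKM + 1) 0 were called, where 0.866% of all genes were.

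Most genes of the set were lowest in the same library. Of 32 genes without Gapdh, 22 had their lowest value of all 14 libraries in CTX140 1. The same count over all genes is not given here, so it does not set the 32 genes apart from others. Against the PBS mean, the median log2 ratio of these genes was -0.56 in CTX140 1, -0.21 in CTX140 2, -0.0017 in CTX140 3, 0.05 in CTX140 4 and -0.18 in CTX140 5. In CTX100 it lay between 0.07 and 0.20, and in PBS between -0.13 and 0.07. CTX140 1 stood apart both in these genes and in the host cell markers named above, and the part of those cells in its low values was not tested. In CTX140 1, 28 of the 32 genes lay below their median of the 14 libraries. Pfkfb3, Pfkfb4, Ddit4 and Slc16a3 did not. There Pfkfb4 had its highest value of the 14, 34.0 CPM, and Ddit4 its highest value of the CTX140 group, 87.3 CPM.

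**Figure D5:**
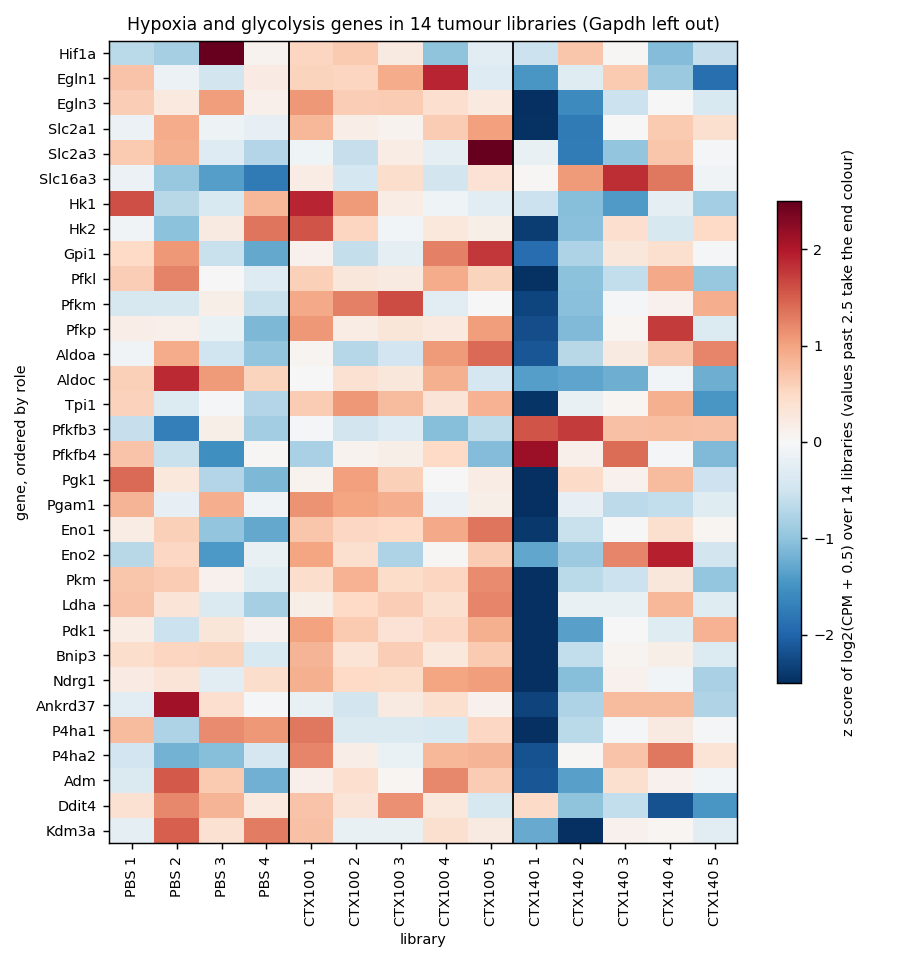
Heat map of z scores of log2(CPM + 0.5), computed per gene over 14 libraries, for 32 hypoxia and glycolysis genes (rows, by role) and libraries (columns, by group); red is high and blue is low. The column of CTX140 1 is blue for most genes, and 22 of the 32 have their lowest value there, with no share of all genes given beside it.

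Other genes of the pathway were taken from lists of 95 genes, of which 89 passed the filter. At CTX100 1 of the 89 was called higher and 0 lower, where 1.20% of all genes were called higher and 0.397% lower. The called gene was Fbp2, a fructose bisphosphatase (log2 fold change 2.13 ± 0.50, edgeR adjusted p = 0.0431), from a mean of 0.32 CPM in PBS to 1.45 CPM. That call was lost in 7 of 9 fits that left out 1 library, with log2 fold changes of 1.82 to 2.62. It held only without PBS 1 or CTX100 3. At CTX140 15 of the 89 (16.9%) were called higher and 7 (7.87%) lower, where 11.1% of all genes were higher and 10.1% lower. Without CTX140 1 it was 14 (15.7%) and 6 (6.74%), where 10.4% of all genes were higher and 9.86% lower. Of 34 other HIF targets, 7 (20.6%) were higher and 3 (8.82%) lower, the latter close to the share of all genes. Rab20, a small GTPase, rose from 24.0 ± 2.55 CPM (SD, n = 4) to 47.8 ± 7.17 CPM (n = 5), a log2 fold change of 0.99 ± 0.16 (SE; edgeR adjusted p = 0.000766). Stc2 (stanniocalcin, log2 fold change 2.21) and Tmem45a (1.36) also rose, and Zfp395 fell by 0.96 and Bnip3l, the mitophagy relative of Bnip3, by 0.53 on the log2 scale. Angptl4 (0.92), Ppp1r3c (2.58), Rora (0.85) and Fam13a (2.26) were called higher as well and were named after their values were seen. Of 9 fits that left out 1 library, 2, 3 and 5 lost the calls of Angptl4, Ppp1r3c and Rora, and 0 that of Fam13a. Ppp1r3c and Fam13a were low, with highest values of 3.48 and 7.19 CPM, both in CTX140 1. Ccng2, a cyclin-related gene named after its values were seen, fell by 0.50, and that call was lost in 6 of 9 fits that left out 1 library (PBS 2, PBS 3, PBS 4, CTX140 1, CTX140 2 or CTX140 3; -0.60 to -0.38). Stc2 was at 70.9 CPM in CTX140 1, while the highest of the other CTX140 libraries was 29.4 CPM; without CTX140 1 its log2 fold change was 1.70 ± 0.28 (SE; edgeR adjusted p = 0.00107).

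Of 11 tested genes of HIF control, 2 were higher and 1 lower at CTX140, where 11.1% and 10.1% of all genes were: Epas1, and, named after their values were seen, Arnt2 (log2 fold change 1.29, from 0.75 to 1.85 CPM) and the HIF partner Arnt (-0.44, edgeR adjusted p = 0.0287). The calls of Arnt2 and Arnt were each lost in 4 of 9 fits that left out 1 library, both without PBS 3 or PBS 4, Arnt2 also without PBS 2 or CTX140 1 and Arnt without CTX140 2 or CTX140 5; Arnt2 then lay between 1.06 and 1.80 and Arnt between -0.55 and -0.35. Epas1, which encodes HIF-2 alpha and is abundant in endothelium and adipose tissue, rose from 16.5 ± 5.84 CPM in PBS to 56.9 ± 29.8 CPM in CTX140, a log2 fold change of 1.78 ± 0.37 (SE; edgeR adjusted p = 0.00485). Its level was 93.6 CPM in CTX140 1 and 81.0 CPM in CTX140 2, above the other CTX140 libraries. The marker sums of blood endothelium were highest in the same libraries, at 256 and 170 CPM. So were those of adipocytes, at 591 and 382 CPM. The part of these cells in the Epas1 result was not tested. Without CTX140 1 the log2 fold change of Epas1 was 1.53 ± 0.35 (SE; edgeR adjusted p = 0.00859). Of 19 other glycolysis genes, 3 (15.8%) were higher and 1 (5.26%) lower, against the same shares of all genes. Hk3, a hexokinase of myeloid cells, went from 43.2 ± 7.62 to 90.5 ± 27.9 CPM (log2 fold change 1.07 ± 0.20, edgeR adjusted p = 0.00173) and was also called between the doses, at 0.99 ± 0.18 (edgeR adjusted p = 0.0260), a call lost in 6 of 10 fits that left out 1 library (CTX100 1 to CTX100 4, CTX140 2 or CTX140 3; 0.79 to 1.09). It was highest in CTX140 2, at 137 CPM, the library with the highest macrophage marker sum, 4062 CPM. In CTX140 4 and CTX140 5 it was at 74.0 and 64.6 CPM, above the PBS range of 35.9 to 51.9 CPM. The macrophage marker sums of these libraries, 809 and 917 CPM, were below the PBS range of 1216 to 1886 CPM. Their neutrophil marker sums, 2333 and 2035 CPM, were above the PBS range of 971 to 1891 CPM. In CTX140 2 the neutrophil sum was 1237 CPM, inside that range. The part of macrophages and neutrophils in the Hk3 result was not tested. The sugar transporters Slc2a6 and Slc2a4, the latter of fat and muscle, rose by 0.74 and 2.85 on the log2 scale, Slc2a4 from a mean of 0.40 to 2.90 CPM. That mean rests on CTX140 1, the library with the highest adipocyte marker sum, where Slc2a4 was at 8.09 CPM, against 1.09 to 2.44 CPM in the other 4; without it the mean was 1.60 CPM and the log2 fold change 2.00 ± 0.43 (SE; edgeR adjusted p = 0.00501). The part of adipocytes in this result was not tested. Slc16a1, which encodes the lactate transporter MCT1 and was likewise named after its values were seen, fell by 0.59 ± 0.16 (SE; edgeR adjusted p = 0.0175), opposite in direction to Slc16a3; the call was lost without PBS 3 or PBS 4, and the change lay between -0.71 and -0.49 when 1 library was left out.

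Of 6 tested gluconeogenesis genes, 3 were called higher at CTX140 and 0 lower, where 11.1% of all genes were higher and 10.1% lower. They were Pcx (pyruvate carboxylase, log2 fold change 2.22), Pck1 (2.99) and Fbp2 (2.16). Pck1 and Fbp2 were low throughout. Pck1 was at 0 to 0.55 CPM in PBS and 0.91 to 4.67 CPM in CTX140, and Fbp2 at 0.14 to 0.60 and 1.02 to 1.87 CPM. Pcx was at 35.2 CPM in CTX140 1 and at 6.69 to 15.7 CPM in the other CTX140 libraries, and Pcx and Pck1 are known to be abundant in adipocytes, whose marker sum was highest in CTX140 1, at 591 CPM. Without CTX140 1 the log2 fold change of Pcx was 1.64 ± 0.29 (SE; edgeR adjusted p = 0.00132) and that of Pck1 2.54 ± 0.61 (edgeR adjusted p = 0.00975). The part of adipocytes was not tested. Of 12 genes of pyruvate oxidation 2 (16.7%) were lower and none higher, where 10.1% of all genes were lower and 11.1% higher. The 2 were Pdha1 (-0.47) and Pdp2 (-0.55), named after their values were seen. The calls of Pdha1 and Pdp2 were lost in 3 and 5 of 9 fits that left out 1 library, both without PBS 3, PBS 4 or CTX140 3 and Pdp2 also without CTX140 2 or CTX140 5, with log2 fold changes of -0.58 to -0.36 and -0.62 to -0.44. Of 7 genes of the pentose phosphate pathway none was called, where 21.3% of all genes were. An unadjusted edgeR p under 0.05 was found in 1 of the 7 and in 5486 of the 15360 genes.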

How the data were processed

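Bulk RNA-seq of 14 tumours was analysed from 2 deposited tables. Counts per gene were deposited by the authors without normalisation; the submitters' processing notes name the build mm10 and the tool DESeq2 without saying what it was used for. The labels state no aligner, counter or strand setting (not given in the sources used here). FPKM values were deposited by the authors. In each library they equal counts over the listed gene length times a constant, so shares within gene families are the same from either by construction. Groups come from the treatment labels. Nothing in the labels says more about how animals map to libraries, so each p-value reflects only how these libraries vary, which may be technical.

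Tests used edgeR 4.0.16 (R 4.3.3) after filterByExpr and TMM scaling: 1 fit of all 14 libraries with 3 group means, and robust quasi-likelihood tests (two-sided) with Benjamini-Hochberg adjustment over 15360 genes, called at an adjusted p under 0.05. CPM uses TMM-scaled library sizes. Intervals at 95% come from the fit. Alternatives used DESeq2 1.42.0, limma 3.58.1, other factors and filters, and left-out libraries. The test was checked on simulated counts. The genes and lists were chosen with earlier results of these data known. All 33 genes are named; values per library are given for the 6 with the smallest p in any comparison and for Hif1a, and Gapdh and the shares of P4ha2 were added after their values were seen. Of the other lists, up to 12 called genes with the smallest p at CTX140 and those called in other comparisons are named. The remaining genes called at CTX140 were named after their values were seen.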

Additional observations from a re-analysis of the deposited data

Results flagged for a closer look

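In 99 groups of values (33 genes in 3 groups), 7 held a library far from the others of its group; chance alone gives about 1 in 20. Gapdh was at 971 CPM in PBS 2, against 15.5 to 25.5 CPM in the other PBS libraries, and at 711 CPM in CTX140 3, against 11.5 to 58.7 CPM. Slc2a1 was at 469 CPM in PBS 2, against 354 to 360 CPM. Bnip3 was at 173 CPM in PBS 4, against 217 to 224 CPM. Slc2a3 was at 31.98 CPM in CTX100 5, against 16.7 to 19.7 CPM. Aldoc was at 67.8 CPM in CTX140 4, against 43.2 to 45.6 CPM. Pgam1 was at 219 CPM in CTX140 1, against 324 to 353 CPM. The effect of Pfkfb3 differed between the doses, which share the PBS libraries, by 0.55 on the log2 scale (edgeR adjusted p = 0.0419).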

How the results depend on the processing

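The number of genes called at CTX100 was 0 as reported and under every alternative but 1. The fit of only these groups called 1 (P4ha2), where 3.63% of all genes were called. At CTX140 it was 5, where 21.3% of all genes were called, and 3 at an adjusted p under 0.01. With only these groups fitted it was 3, where 12.5% of all genes were. Leaving out 1 library gave 3 (without PBS 3 or CTX140 2) to 6. Between the doses it was 1, where 1.25% of all genes were called. It was 0 at an adjusted p under 0.01, 4 at under 0.1, 3 with no filter on low counts and 2 with the replicate block. DESeq2 called 4, where it called 6.99% of all genes. With limma on log2(FPKM + 1) or log2(FPKM + 0.1) it was 0, where 0.866% and 0.951% of all genes were called. Leaving out 1 library gave 0 to 4 (4 without CTX140 4 and 3 without CTX140 5). For the other settings no share of all genes is given here, so a change in these counts alone does not describe the set. The cause of these changes was not tested. Libraries with the same number did not pair (correlation of their deviations from -0.19 to 0.43, and under 0.1 for some pair in each comparison); the block called 0 genes at CTX100 and 4 at CTX140, where Ddit4 was lost. Over the 33 genes and all alternatives no called gene changed sign, 29 of 121 checks of a called gene lost the call, and 71 of 1892 checks of a gene not called changed sign. Leaving out 1 library can move a group's mean share by less than its SD only, so it does not test the isoform shares. Shares from counts over the listed gene length equal those from FPKM by construction, so that setting does not test them either. For the other pathway genes, leaving out libraries was chosen after seeing the data. Without CTX140 1 the HIF control genes called higher fell from 2 to 1 and the HIF targets called lower from 3 to 2. Over all genes the share called higher went from 11.1% to 10.4% and that called lower from 10.1% to 9.86%.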
